A study of Homo sapiens with 4 samples.

Results

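PolyA RNA sequencing of HCT116, an established cell line from a human colorectal carcinoma, measured 44 genes of H3K4 methylation, its removal, enhancer coactivation and Mediator. The 44 genes were chosen by name, from the COMPASS, KDM, acetyltransferase, BET and Mediator families, and all 44 were found among the 60683 gene identifiers of the tables. Per the labels, all libraries came from cells transduced with a pSin lentivirus and kept under puromycin. In 2 libraries (control replicates 1 and 2, also called empty vector) the vector held no insert, and in 2 (FOXD2 replicates 1 and 2) it held the full-length CDS of the forkhead transcription factor FOXD2. The labels name stable lines but give neither clones, vector promoter, nor whether replicates came from separate cultures, so that p-values measure the spread between these libraries, which may be technical.

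Methylation of lysine 4 on histone H3 marks active chromatin: trimethylation is found at promoters and monomethylation at enhancers. It is written mainly by COMPASS complexes, in which 1 of the enzymes KMT2A to KMT2D, SETD1A or SETD1B sits on a shared core of WDR5, RBBP5, ASH2L and DPY30. Other subunits distinguish the complexes, and demethylases of the KDM1 and KDM5 families remove the methyl groups. The acetyltransferases EP300 and CREBBP acetylate enhancers, BET proteins bind acetylated histones, and Mediator links transcription factors to RNA polymerase II. As background, such genes act in nearly all cell types.

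Totals were between 14231338 and 15535817 counts per library. FOXD2 had 49 and 42 counts in the control libraries and 8195 and 7011 in the FOXD2 libraries, higher by 7.32 on the log2 scale (SE 0.10, edgeR adjusted p = 6.5e-50), as labelled. Of 10 colon epithelial markers, EPCAM, KRT8, KRT18, KRT19, CDH1 and CDX2 were at measurable levels, whereas VIL1, CDX1, CDH17 and LGR5 had at most 6 counts in any library. Among blood and endothelial markers PTPRC, CD3E, CDH5 and HBB had 0 counts in all 4 libraries, CD14 and PECAM1 at most 5, and VWF between 6 and 22 (log2 difference 0.93, edgeR adjusted p = 0.11). Of 6 fibroblast markers COL1A2, DCN and LUM had 0 counts and COL3A1 and PDGFRB at most 6. Of 5 markers of HEK293T, a line used to package lentivirus, NEFM and NEFL had 0 counts, VGF (1.16) and PAX2 (0.42) rose and ZIC2 (-0.57) fell. Of the colon markers 5 rose, KRT19 and CDH1 by over 1 on the log2 scale, and CDX2 fell; COL1A1, the only one of 6 fibroblast markers with enough counts to test, rose from 9.44 and 10.6 to 31.4 and 32.8 CPM (CPM, counts relative to the TMM-scaled library total). The share of mitochondrial mRNA was 6.79% and 6.80% for control replicates and 8.17% and 8.62% for FOXD2 replicates. RNAs that lack a polyA tail (5 genes, such as RN7SK) reached 129 CPM in FOXD2 replicate 1, 56.8 CPM in FOXD2 replicate 2 and at most 29.7 CPM in the controls. The part of these in the values below was not tested.

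Sequences upstream of 4 of these genes are shown because the genes are the 2 that fell most, PSIP1 and KDM1A, the methyltransferase that rose most, KMT2C, and the core subunit WDR5. They are from RefSeq (GRCh38.p14) and read 5′ to 3′ on the strand of the gene. Each ends before the RefSeq start nearest the GENCODE 29 gene start, and at most 10 bases past the latter. Capitals mark matches to TGTTTAC, the core of the forkhead motif, and GGGCGG, the GC box bound by SP and KLF factors, on either strand.
PSIP1, chr9:15511010-15511220, minus strand: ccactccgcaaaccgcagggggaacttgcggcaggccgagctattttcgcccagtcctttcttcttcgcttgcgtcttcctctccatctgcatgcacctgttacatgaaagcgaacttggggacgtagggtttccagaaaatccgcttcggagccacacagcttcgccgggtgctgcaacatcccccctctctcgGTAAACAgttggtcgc
KDM1A, chr1:23019218-23019452, plus strand: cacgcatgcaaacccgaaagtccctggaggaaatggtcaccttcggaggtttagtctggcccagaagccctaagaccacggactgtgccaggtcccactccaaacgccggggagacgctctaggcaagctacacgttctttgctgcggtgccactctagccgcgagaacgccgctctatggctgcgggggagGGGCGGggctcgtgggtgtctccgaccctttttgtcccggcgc
KMT2C, chr7:152436004-152436253, minus strand: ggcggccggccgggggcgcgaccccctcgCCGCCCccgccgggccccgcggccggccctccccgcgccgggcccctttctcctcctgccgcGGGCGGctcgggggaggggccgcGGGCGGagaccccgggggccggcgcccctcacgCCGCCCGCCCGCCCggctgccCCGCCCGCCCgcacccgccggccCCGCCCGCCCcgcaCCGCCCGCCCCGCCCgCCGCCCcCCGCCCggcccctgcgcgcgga
WDR5, chr9:134135127-134135374, plus strand: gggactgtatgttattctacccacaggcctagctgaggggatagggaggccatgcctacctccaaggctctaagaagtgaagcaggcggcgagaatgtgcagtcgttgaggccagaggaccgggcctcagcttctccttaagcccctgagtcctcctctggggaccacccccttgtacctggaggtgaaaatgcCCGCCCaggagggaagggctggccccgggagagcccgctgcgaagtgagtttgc

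For 8 of the 44 genes no RefSeq window was at hand. The windows of the other 36 genes covered 50 start sites, and the 250 bases upstream of each were searched on both strands. TGTTTAC was found upstream of 1 of these genes, PSIP1, that is in 2.0% of the windows, beside 2.98% of all 35114 windows of this length in the table. In PSIP1 the match ends 49 bases before the RefSeq start. GGGCGG was found in 64.0% of the windows, against 42.6% of all, and KMT2C held 15 matches, overlapping ones included, and KDM1A 1. The pentamer CCAAT, bound by NF-Y, was in 20% of the windows against 32.0% of all. It was upstream of 0 of 11 genes higher in FOXD2 cells, 4 of 11 lower and 4 of 13 that did not pass. For GGGCGG these counts were 8 of 11, 7 of 11 and 10 of 13. The ETS motif CCGGAAG was in 4.0% of the windows against 8.5% of all, and the E-box CACGTG in 8.0% against 6.3%. These 5 motifs were not counted by call over all genes, and the splits were not tested. A match describes these letters and was not tested for binding. The median GC content was 64.0% for the windows of these genes and 58.0% for all windows.

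The question was how expression of this machinery differed between FOXD2 and control cells. Of the 6 COMPASS methyltransferases 4 rose and 2 did not pass, and all 4 core subunits fell; of all genes tested, 27.2% were higher and 26.4% lower. In the alternative analyses 3 to 4 methyltransferases passed as higher, up to 1 as lower, and 1 to 4 core subunits as lower. The acetyltransferase KAT2B rose most, 3.18-fold, and the chromatin reader PSIP1 fell most, by 0.89 on the log2 scale. The demethylases split, with KDM1A lower and KDM5B and KDM5C higher, and so did Mediator, with MED15, MED23 and MED12 higher and MED1, CDK8 and CCNC lower. Of these Mediator genes, MED15 and CDK8 kept the call in all 15 alternative analyses. MED1, MED12 and MED23 each lost it in 3, and CCNC in 10. In bulk RNA, fewer cells with a transcript and less of it per cell cannot be told apart.

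Of the 44 genes, 43 passed the filter on low counts; PRDM9, a meiotic methyltransferase, had 0 counts in every library, which allows up to 3 counts each, or between 0.193 and 0.211 CPM. At an edgeR adjusted p under 0.05, 13 genes were higher and 14 lower in FOXD2 cells, 62.8% of those tested. Among all 14470 genes tested, 53.5% passed, 27.2% higher and 26.4% lower, so the share of these genes lay near the background. Their median log2 difference was 0.01, as it was over all genes (0.01). The changes were small in size: the median absolute log2 difference was 0.22 for these genes and 0.32 for all. Here and in the shares that follow, all genes were not matched in level to these genes, of which 32 lay above the median gene. A difference of at least 1.2-fold was found for 19 of them (44.2%, against 46.1% of all), and of at least 1.5-fold for 4 (9.30%, against 22.7%): KAT2B, KMT2C, PSIP1 and KDM1A. When tested against a difference of 1.2-fold (glmTreat), 6 were higher and 4 lower (23.3%, against 30.9% of all genes, 17.6% higher and 13.2% lower). Groups did not overlap in CPM for 32 of the 43 (74.4%, against 76.1% of all). DESeq2 called 8 of these genes higher and 9 lower (39.5%). Its run covered 24046 genes rather than 14470, of which 2398 were called higher and 2787 lower (21.6%). Without scaling factors the split was 15 higher to 10 lower for these genes and 4514 to 3104 for all genes.

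**Figure D1:**
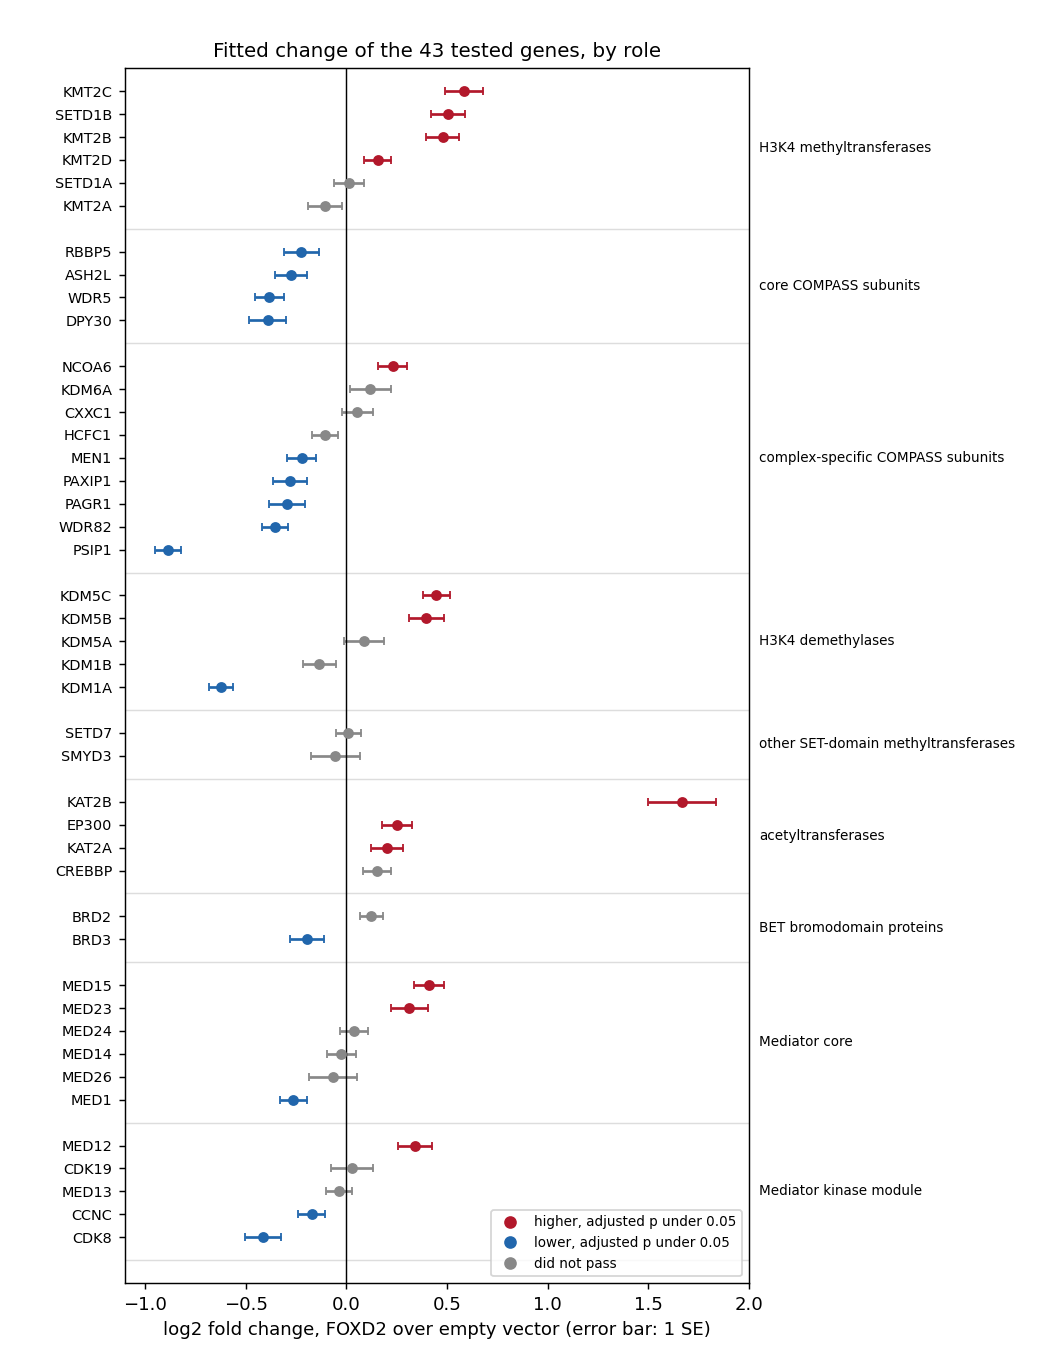
Fitted log2 difference of FOXD2 over empty vector for the 43 genes tested (points, with error bars of 1 SE, n = 2 libraries per group), grouped by role and coloured by the edgeR call at an adjusted p of 0.05. The 4 core COMPASS subunits lie below 0 and 5 of the 6 methyltransferases above it, 4 of them called, and KAT2B, at 1.67, stands far to the right of the others.

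Levels are given per length, as the authors' TPM (length-normalised transcript abundance). In control cells the 43 genes had a median of 20.5 TPM, beside 12.6 TPM for all genes tested, and 32 of them lay above the median gene. BRD2, with a mean of 220.4 TPM, PSIP1 (134 TPM), KDM1A (129 TPM) and DPY30 (106 TPM) were highest. KAT2B, at 1.65 TPM, was lowest, followed by SETD1B (5.97 TPM, chromosome 12) and KMT2C (6.60 TPM, chromosome 7). Counts of single genes were between 68 and 6333 per library.

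The methyltransferases are large SET-domain enzymes. Of the 6, KMT2B, KMT2C, KMT2D and SETD1B rose, and KMT2A and SETD1A did not pass (median log2 difference 0.32). KMT2C, which with KMT2D deposits monomethylation at enhancers, had 51.5 and 41.9 CPM in the control libraries and 64.1 and 75.8 CPM in the FOXD2 libraries (log2 difference 0.59, SE 0.10, edgeR adjusted p = 1.5e-05). SETD1B, an enzyme of promoter trimethylation, had 37.3 and 35.2 CPM against 51.5 and 51.5 CPM (0.51, SE 0.09, adjusted p = 1.4e-06). For both genes each FOXD2 library lay above each control library, with the wider spread for KMT2C.

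KMT2B, which acts at promoters of developmental genes, had 43.3 and 44.3 CPM in the control libraries and 59.8 and 62.5 CPM in the FOXD2 libraries (log2 difference 0.48, SE 0.08, edgeR adjusted p = 1.4e-06). On the per-length scale its groups did overlap: its TPM was 25.4 and 15.6 in control replicates 1 and 2 and 20.7 and 20.8 in the FOXD2 libraries. The transcript length that RSEM assigned to KMT2B was 2370 bases in control replicate 1 and between 3748 and 4138 bases in the other libraries, and with limma on log2(TPM + 0.5) its log2 difference was 0.06 (adjusted p = 0.85).

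KMT2D was just inside the threshold, with 184 and 156 CPM against 189.7 and 189.6 CPM (log2 difference 0.16, SE 0.07, edgeR adjusted p = 0.044). Its adjusted p was 0.79 without control replicate 2 and 0.052 without FOXD2 replicate 1, 0.085 with a replicate block, and 0.22 with DESeq2, and its value was -0.0057 once a trend on length and GC content was removed. SETD1A, the close paralog of SETD1B, had 69.4 and 74.6 CPM against 75 and 70.3 CPM, a log2 difference of 0.01 (adjusted p = 0.90). KMT2A, the founding member of the family and a target of leukaemia translocations, had 155 and 126 CPM against 124 and 136 CPM, overlapping groups (log2 difference -0.11, adjusted p = 0.31). It passed as lower without control replicate 2 (-0.26, adjusted p = 0.019) or without FOXD2 replicate 2 (-0.18, adjusted p = 0.034), and SETD1A as lower (-0.21, adjusted p = 0.011) with the trend on length and GC content removed.

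The core subunits hold the SET domain in its active form and are shared by the 6 enzymes. WDR5, the scaffold with a WD40 ring, had 110.4 and 109 CPM in the control libraries and 87.6 and 81.2 CPM in the FOXD2 libraries (log2 difference -0.38, SE 0.07, edgeR adjusted p = 7.0e-06). DPY30, the smallest subunit, had 39.3 and 40.2 CPM against 31.5 and 29.1 CPM (-0.39, SE 0.09, adjusted p = 0.00030). In both genes the FOXD2 libraries were lower than either control library by more than the replicates differed.

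ASH2L, which binds DPY30 and RBBP5, had 64.5 and 74.3 CPM in the control libraries and 59.2 and 55.7 CPM in the FOXD2 libraries (log2 difference -0.27, SE 0.08, edgeR adjusted p = 0.0031). RBBP5, the WD40 protein that contacts the SET domain, had 53.5 and 46.0 CPM against 43 and 42.2 CPM (-0.22, SE 0.09, adjusted p = 0.026). The groups did not overlap, but the gap was narrower than the spread of the control libraries. Without control replicate 2 the adjusted p of ASH2L was 0.19, and without control replicate 1 that of RBBP5 was 0.44 (0.060 without FOXD2 replicate 2). With limma on log2(TPM + 0.5) these were 0.071 and 0.38, and with DESeq2 RBBP5 had an adjusted p of 0.15.

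**Figure D2:**
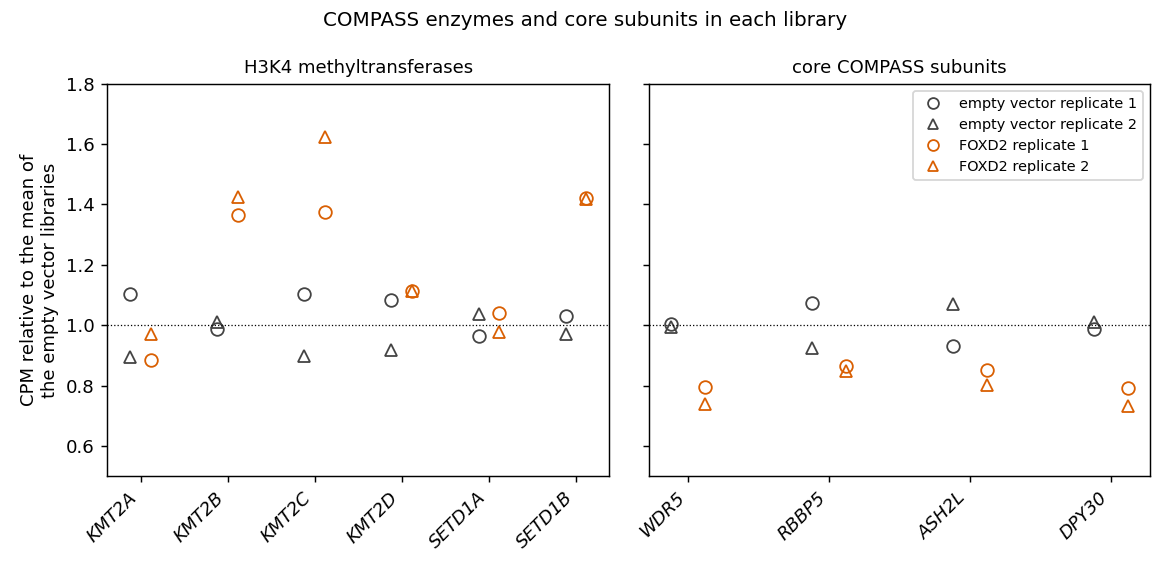
CPM of each COMPASS methyltransferase (left) and core subunit (right) in each of the 4 libraries, divided by the mean of the 2 control libraries (dotted line at 1; circles are replicate 1, triangles replicate 2; the linear axis starts at 0.5). FOXD2 libraries lie above both control libraries for KMT2B, KMT2C, KMT2D and SETD1B and below both for WDR5, RBBP5, ASH2L and DPY30.

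Summed over genes, the 6 methyltransferases had 105 and 86.9 TPM in the control libraries and 112 and 114 TPM in the FOXD2 libraries. The 4 core subunits had 206 and 212 TPM against 171 and 160.5 TPM. The core thus amounted to 1.96 and 2.44 times the enzymes in the control libraries and 1.53 and 1.41 times in the FOXD2 libraries, with no overlap. These sums were formed after the values were seen and were not tested.

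Of the 9 subunits outside the shared core, 5 fell, 1 rose and 3 did not pass (median log2 difference -0.22). PSIP1, also named LEDGF, tethers the KMT2A and menin complex to chromatin. It had 225 and 223 CPM in the control libraries and 113 and 129 CPM in the FOXD2 libraries (log2 difference -0.89, SE 0.07, edgeR adjusted p = 4.0e-17). No other of the 43 genes fell as far, and its size exceeded that of 85.8% of all genes tested. The gene lies on chromosome 9 from 15464066 to 15511019, minus strand (GENCODE 29, GRCh38), and overlaps SNAPC3 on the other strand.

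MEN1, which encodes menin, the partner of PSIP1, had 90.2 and 99.2 CPM against 82.3 and 80.2 CPM (log2 difference -0.22, SE 0.07, edgeR adjusted p = 0.0080). WDR82, which brings the SETD1 complexes to initiating RNA polymerase II, had 191 and 192 CPM against 142 and 158 CPM (-0.35, SE 0.06, adjusted p = 4.2e-06). CXXC1, which binds unmethylated CpG in the same complexes, did not pass on counts (0.05, adjusted p = 0.58). On the per-length scale CXXC1 had 46.6 and 45.5 TPM in the control libraries and 60.6 and 65.3 TPM in the FOXD2 libraries (limma on log2(TPM + 0.5), 0.45, adjusted p = 0.0033). The length that RSEM assigned to it was 1970 and 1958 bases in control libraries and 1676 and 1478 bases in FOXD2 libraries. HCFC1, a subunit of several of the complexes, had 168 and 167 CPM against 160.0 and 151 CPM and did not pass (-0.11, adjusted p = 0.16). It passed as lower with the trend on length and GC content removed. Without control replicate 2 the adjusted p of MEN1 was 0.21, and without FOXD2 replicate 1 that of HCFC1 was 0.049.

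Other subunits belong to the complexes of KMT2C and KMT2D. The adaptors PAXIP1 and PAGR1 fell and the coactivator NCOA6 rose. PAXIP1 had 50.4 and 47.6 CPM in control and 38.6 and 42.2 CPM in FOXD2 libraries (log2 difference -0.28, SE 0.09, edgeR adjusted p = 0.0049). PAGR1, its binding partner, had 42.8 and 47.5 CPM against 34.8 and 39.1 CPM (-0.29, SE 0.09, adjusted p = 0.0046), with up to 4.36% of its count uncertain by the posterior SD of RSEM for reads shared with other genes. NCOA6 had 78.6 and 74.7 CPM against 89.4 and 90.4 CPM (0.23, SE 0.07, adjusted p = 0.0058). KDM6A, the X-linked H3K27 demethylase of these complexes, did not pass (0.12, adjusted p = 0.32). With the trend on length and GC content removed, KDM6A passed as higher. The groups did not overlap for PAXIP1, PAGR1, NCOA6 or KDM6A. Calls were lost without control replicate 2 for NCOA6 (adjusted p = 0.13) and PAGR1 (0.13; 0.061 without FOXD2 replicate 1) and without control replicate 1 for PAXIP1 (0.079), and DESeq2 passed none of the 3 (adjusted p between 0.062 and 0.075).

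Among the demethylases, KDM1A (LSD1), which removes mono- and dimethylation, fell. It had 282 and 294 CPM in the control libraries and 192 and 183 CPM in the FOXD2 libraries (log2 difference -0.62, SE 0.06, edgeR adjusted p = 2.9e-13). Its paralog KDM1B had 50.4 and 47.8 CPM against 44.2 and 45.3 CPM and did not pass (-0.13, adjusted p = 0.18). FOXD2 libraries were below control libraries for both genes, by far more than the replicate spread for KDM1A. Per length, KDM1A was 8.35 and 9.22 times KDM1B in the control libraries and 6.69 and 6.22 times in the FOXD2 libraries; this ratio was not tested.

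The KDM5 enzymes remove trimethylation. KDM5C, on chromosome X, had 94.3 and 96.0 CPM in the control libraries and 133 and 127 CPM in the FOXD2 libraries (log2 difference 0.45, SE 0.07, edgeR adjusted p = 1.2e-07). KDM5B had 38.4 and 34.6 CPM against 47.0 and 49.1 CPM (0.40, SE 0.09, adjusted p = 0.00011). KDM5A had 48.6 and 38.0 CPM against 43.4 and 48.6 CPM, with overlapping groups (0.09, adjusted p = 0.47). In sum the 3 KDM5 genes had 42.3 and 41.8 TPM in control libraries and 50.6 and 55.2 TPM in FOXD2 libraries, and the 2 KDM1 genes 143 and 145 TPM against 105 and 102 TPM, sums that were not tested.

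Neither of the other SET-domain methyltransferases that were tested passed. SETD7, a lysine methyltransferase with many non-histone substrates, had a log2 difference of 0.01 (adjusted p = 0.91), and SMYD3, a mainly cytoplasmic enzyme, one of -0.06 (adjusted p = 0.73). Their groups overlapped.

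Of the 4 acetyltransferases, 3 rose and CREBBP did not pass (median log2 difference 0.23). KAT2B (PCAF), an acetyltransferase of the SAGA and ATAC complexes, had 72 and 68 counts in the control libraries and 210 and 252 in the FOXD2 libraries. This is 5.15 and 4.50 CPM against 13.5 and 17.2 CPM, a log2 difference of 1.67 (SE 0.17, edgeR adjusted p = 1.6e-12), larger in size than that of 95.8% of all genes tested. KAT2A (GCN5), which takes the same place in these complexes, had 51.1 and 57.8 CPM against 63.7 and 62 CPM (0.20, SE 0.08, adjusted p = 0.028). KAT2A exceeded KAT2B per length by 15.1 and 16.6 times in the control libraries and by 7.35 and 5.40 times in the FOXD2 libraries. Groups were separate for both genes, and the difference in ratio was not tested.

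EP300, the coactivator that acetylates H3K27 at enhancers, had 96.3 and 81.6 CPM in the control libraries and 104 and 108 CPM in the FOXD2 libraries (log2 difference 0.25, SE 0.07, edgeR adjusted p = 0.0032). Its paralog CREBBP was just outside the threshold, with 102 and 97.9 CPM against 115 and 107 CPM (0.15, SE 0.07, adjusted p = 0.056). FOXD2 libraries were above control libraries for both genes. The adjusted p of EP300 was 0.30 without control replicate 2 and 0.057 with DESeq2, and that of KAT2A was 0.42 without control replicate 1, 0.097 without FOXD2 replicate 1, 0.054 with a replicate block and 0.22 with DESeq2. CREBBP passed as higher in 3 of 15 alternative analyses. These were no scaling factors, a filter of at least 1 CPM in 2 libraries, and FOXD2 replicate 2 left out (log2 difference 0.20).

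The BET proteins BRD2 and BRD3 lay on either side of the threshold. BRD2 had 361 and 362 CPM in the control libraries and 407 and 381 CPM in the FOXD2 libraries (log2 difference 0.12, SE 0.06, edgeR adjusted p = 0.054), and BRD3 had 50 and 46.7 CPM against 40.1 and 44.3 CPM (-0.20, SE 0.09, adjusted p = 0.049). BRD2 passed as higher in 5 of 15 alternative analyses. These were no scaling factors, a filter of at least 1 CPM in 2 libraries, limma on both TPM scales, and FOXD2 replicate 2 left out. BRD3 did not pass without control replicate 1 (0.30), control replicate 2 (0.071) or FOXD2 replicate 1 (0.27), nor with a replicate block (0.085) or DESeq2 (0.21), and its value was 0.13 with limma on log2(TPM + 0.5).

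**Figure D3:**
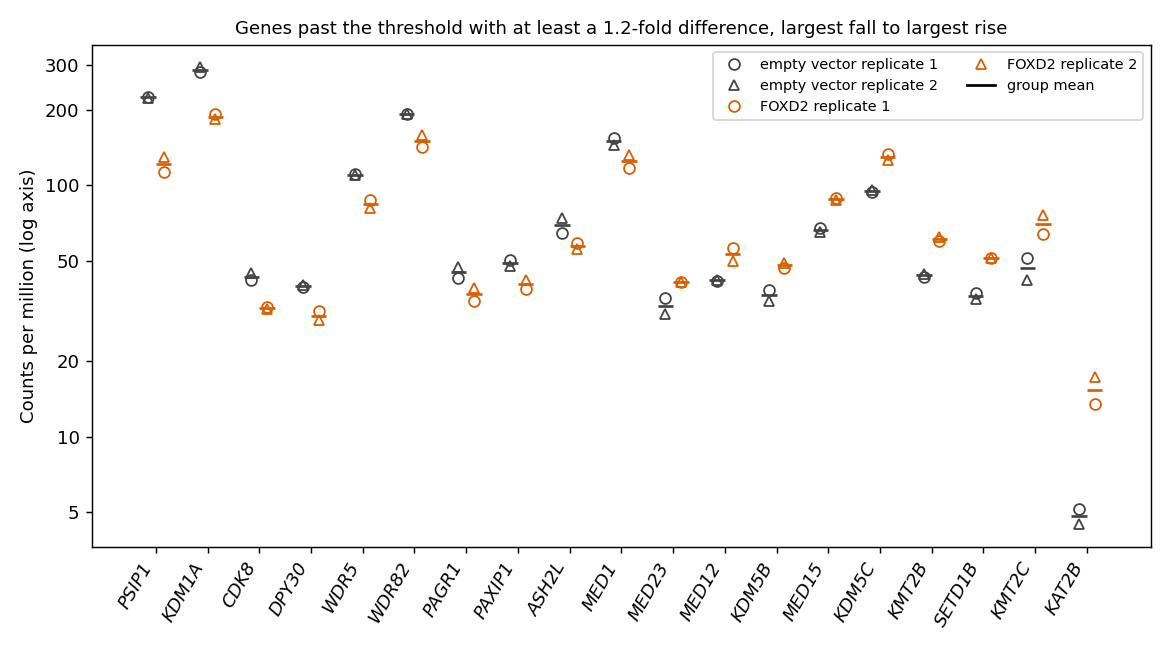
CPM (log axis) in each library of the 19 genes that passed the edgeR threshold with a fitted difference of at least 1.2-fold, ordered from the largest fall to the largest rise; circles are replicate 1, triangles replicate 2, grey empty vector, orange FOXD2, and bars group means. The 2 groups are separate for each of the 19 genes, which were chosen by their difference, and for 76.1% of all genes tested. KAT2B is lowest in level, between 4.50 and 17.2 CPM.

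Of the 6 Mediator genes outside the kinase module, 2 rose, 1 fell and 3 did not pass (median log2 difference 0.01). MED15, a tail subunit that binds activators, had 67.5 and 65.2 CPM in the control libraries and 89.2 and 87.4 CPM in the FOXD2 libraries (log2 difference 0.41, SE 0.07, edgeR adjusted p = 3.9e-06). MED23, another tail subunit, had 35.7 and 30.7 CPM against 41.1 and 41.2 CPM (0.31, SE 0.09, adjusted p = 0.0033). MED1, the subunit that binds nuclear receptors, had 154 and 145 CPM against 117 and 132 CPM (-0.26, SE 0.07, adjusted p = 0.00076). Groups were separate for these 3 genes.

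The scaffold MED14, the tail subunit MED24 and MED26, which contacts elongation factors, had log2 differences of -0.02, 0.04 and -0.06 with overlapping groups, and their adjusted p-values were between 0.67 and 0.80. MED26 passed as lower with the trend on length and GC content removed. The call of MED23 was lost without control replicate 2 (adjusted p = 0.19) and with DESeq2 (0.10), and that of MED1 with limma on log2(TPM + 0.5) (0.13).

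The kinase module, a detachable part of Mediator, consists of MED12, MED13, cyclin C (CCNC) and CDK8 or its paralog CDK19. CDK8 fell, from 41.8 and 44.6 CPM in the control libraries to 32.7 and 32.2 CPM in the FOXD2 libraries (log2 difference -0.41, SE 0.09, edgeR adjusted p = 9.3e-05). CDK19 had 30.3 and 25.8 CPM against 26.5 and 30.7 CPM, with overlapping groups (0.03, SE 0.10, adjusted p = 0.83). CDK8 was 2.64 and 3.40 times CDK19 per length in the control libraries and 2.38 and 2.25 times in the FOXD2 libraries, a ratio that was not tested.

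MED12, the X-linked activator of the kinase, had 41.7 and 42.1 CPM in control libraries and 56.2 and 49.9 CPM in FOXD2 libraries (log2 difference 0.34, SE 0.08, edgeR adjusted p = 0.00059). CCNC, the cyclin of the module, had 110.1 and 113 CPM against 99.6 and 98.1 CPM (-0.17, SE 0.07, adjusted p = 0.030). MED13, which joins the module to the core, did not pass (-0.03, adjusted p = 0.67). MED12 and CCNC thus had fitted differences of opposite sign, each with separate groups. The call of CCNC was lost in 10 of 15 alternative analyses, where its log2 difference ranged from -0.19 to -0.028 over all 15. Among these losses were DESeq2, limma on TPM, no scaling factors and the length and GC trend removed. The adjusted p of CCNC was 0.097, 0.18 and 0.067 without control replicate 1, control replicate 2 and FOXD2 replicate 2, and 0.088 with a replicate block, and MED12 did not pass with limma on log2(TPM + 0.5) (0.11).

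The genes that rose had longer transcripts than those that fell. The median length assigned by RSEM was 5224 bases for the 13 higher genes, 3031 bases for the 14 lower genes and 5141 bases for the 16 that did not pass. Among the 24 genes of at least 4000 bases, 10 were higher and 4 lower, and among the 19 shorter ones 3 were higher and 10 lower. Across the 43 genes, log2 difference and length had a Spearman correlation of 0.38 and a Pearson correlation of 0.32. Across 14386 genes with a length and GC content the values were -0.02 and -0.03. For GC content the Spearman correlation was 0.05 across the 43 genes and 0.26 across the 14386. For mean log2 CPM it was -0.16 and -0.23, and the Pearson correlation was -0.38 and -0.22. Genes are not independent replicates, and all share the same 4 libraries. Of all genes of at least 4000 bases 27.1% were higher and 29.7% lower, and of all shorter genes 27.2% and 25.5%. The length groups were not tested. The length RSEM assigned was shorter in both FOXD2 libraries than in both controls for 12 of the 43 (27.9%, against 17.1% of all genes). With a trend on length and GC content removed, 12 of the 43 were higher and 15 lower, and of all genes 3681 were higher and 4151 lower.

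Genes of the same pathways outside this set were counted in 7 lists of 115 genes, 114 of them tested. Of these 22 rose and 35 fell (50% passed, near the 53.5% of all genes), with a median log2 difference of -0.05. Without scaling factors 32 rose and 23 fell, and with DESeq2 14 and 17. Among 22 other Mediator subunits 3 rose and 9 fell (median -0.10): MED11 (0.57) and MED22 (0.43), both of the head module, rose most, and MED12L (-0.69), the paralog of MED12, and MED30 (-0.62) fell most. The 9 that fell became 5 without control replicate 1, 3 without control replicate 2 and 5 without FOXD2 replicate 2; with DESeq2 2 rose and 1 fell, and without scaling factors 5 rose and 4 fell. Among 14 partners of LSD1 in CoREST and related deacetylase complexes 2 rose and 4 fell (median -0.00). The deacetylase HDAC1 had 267 and 267 CPM in the control libraries and 182 and 170.4 CPM in the FOXD2 libraries (-0.60), and the scaffold RCOR2 fell by 0.48, while GSE1 (0.62) and RCOR3 (0.27) rose. Without control replicate 1 or FOXD2 replicate 2, 1 of these 14 rose.

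Among 20 SAGA and ATAC subunits, the complexes that hold KAT2A and KAT2B, 3 rose and 8 fell (median -0.11). TAF9B (-0.69) and YEATS2 (-0.52), an acetyl-lysine reader of ATAC, fell most, and SGF29 (0.49), a reader of H3K4 methylation, and ATXN7 (0.40), of the deubiquitinase module, rose most. Of 9 other histone acetyltransferases 3 fell and the other 6 did not pass (median -0.12), with HAT1, which acetylates new histone H4, at -0.39 and NCOA2 at -0.35. Without control replicate 1, 1 of the 9 fell, and without FOXD2 replicate 1 or FOXD2 replicate 2, 1 rose. Of 19 genes for release of paused polymerase and elongation 7 rose and 4 fell (median 0.04). SUPT4H1, a subunit of the elongation factor DSIF, had 79.7 and 92.1 CPM against 170.2 and 164 CPM (0.96), ELL3 rose by 0.72, and AFF1 (-0.85) and MLLT3 (-0.46), both of super elongation complexes, fell.

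Of 17 tested readers of H3K4 methylation 6 rose and 3 fell (median 0.01), with ING4 (0.56) and SGF29 up and the chromatin remodeller CHD1 (-0.37) and PHF13 (-0.33) down. The 6 that rose became 2 without control replicate 1, 3 without control replicate 2, 1 with DESeq2 and 0 with glmTreat. Of 14 other histone demethylases 2 rose and 4 fell (median 0.13). KDM6B, which removes H3K27 trimethylation, had 24.0 and 20.9 CPM in the control libraries and 53.2 and 45.2 CPM in the FOXD2 libraries (1.13, SE 0.10), JMJD6 rose by 0.22, and KDM4D (-0.63) and KDM7A (-0.43) fell. For these demethylases 1 rose without control replicate 1, 1 rose and 1 fell without control replicate 2, and 5 rose and 5 fell without FOXD2 replicate 2. With DESeq2 1 rose and 0 fell, with limma on log2(TPM + 0.5) 1 rose and 0 fell, and without scaling factors 5 rose and 2 fell. The 25 genes named from these lists had edgeR adjusted p-values of at most 0.037. Of them 16 passed whichever library was left out, and 9 did not: MED11, RCOR3, SGF29, MLLT3, ING4 and JMJD6 lost the call without control replicate 1 (adjusted p = 0.13, 0.24, 0.064, 0.43, 0.071 and 0.14), as did RCOR2 (0.14) and NCOA2 (0.078). Without control replicate 2 the call was lost for JMJD6 (0.073) and KDM4D (0.17), without FOXD2 replicate 1 for MED11 (0.31), MLLT3 (0.17), ING4 (0.067), JMJD6 (0.51) and KDM4D (0.10), and without FOXD2 replicate 2 for RCOR3 (0.41).

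**Figure D4:**
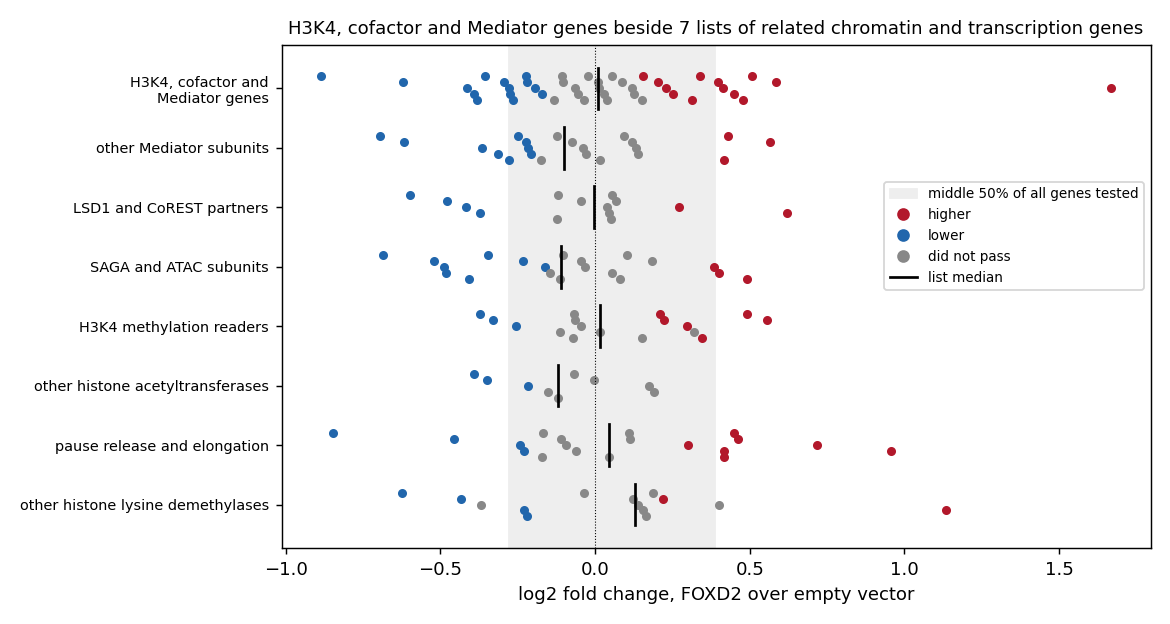
Log2 fold change of FOXD2 over empty vector for each tested gene (points; vertical bars are list medians) of the 44-gene set and of 7 lists of related genes, with the grey band spanning the middle 50% of all 14470 genes tested, from -0.28 to 0.39. List medians lie between -0.12 and 0.13, inside the band.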

How the data were processed

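The 44 genes and the lists were chosen with earlier results of these data known. Libraries were made with a stranded polyA kit, per the labels' protocols; STAR 2.7.2b and RSEM 1.2.31 were used on GRCh38, per the submitters' processing notes, while annotation release and strand setting are not given in the sources used here. The deposited tables give the authors' RSEM expected count, which shares ambiguous reads among genes, the authors' TPM, and each gene's length as a mean over its transcripts. Of the 44 genes, 33 overlap a gene on the opposite strand, so their values could hold reads of both if strand was not used.

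Counts were rounded and tested with edgeR 4.0.16 in R 4.3.3 (TMM, filterByExpr, robust quasi-likelihood, group only), with Benjamini-Hochberg adjustment over 14470 genes at a threshold of 0.05. The procedure was tested on simulated data in which a small part of the genes, all well counted, differed. Those differences were larger than most found here, so the smaller ones were not covered. A marker gene is not reported here. CPM uses TMM-scaled totals, and SE belongs to the log2 fold change (n = 2 per group). SE was derived as the absolute log2 fold change divided by the square root of the quasi-likelihood F statistic. Zero-count limits cover counting error only. Alternatives were DESeq2 1.42.0, limma 3.58.1 (voom, and log2(TPM + 0.5) or log2(TPM + 0.1)), other scalings and filters, glmTreat, a replicate block and each library left out. Removal of a trend on length and GC content was added after the data were seen. Every gene past the threshold with at least a 1.2-fold difference is given by library, and of each list the 2 largest rises and falls at a mean log2 CPM from 1 upward.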

Additional observations from a re-analysis of the deposited data

How the results depend on the processing

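Of the 27 calls, 9 were kept in every alternative run (KMT2C, SETD1B, WDR5, PSIP1, KDM1A, KDM5C, KAT2B, MED15 and CDK8) and 12 in every alternative but glmTreat. In the main test 13 of the 43 genes were higher and 14 lower. The counts were 6 and 4 with glmTreat, 8 and 9 with DESeq2, and 11 and 6 with limma on log2(TPM + 0.5) or log2(TPM + 0.1). Over all genes, 3929 were higher and 3816 lower, against 2551 and 1916 with glmTreat. DESeq2, run on 24046 genes rather than 14470, gave 2398 and 2787. The counts were 2942 and 2455 with limma on log2(TPM + 0.5), and 2917 and 2436 with limma on log2(TPM + 0.1). With no scaling factors 15 of the 43 were higher and 10 lower, and of all genes 4514 and 3104 (59.3% of calls higher, against 50.7%). Leaving out 1 library gave 9 to 15 higher and 10 to 13 lower of the 43; the lone library of its group is then assumed to vary like the other group. The sign of the log2 difference turned in some alternative for 14 of the 43 genes, 2 of them called (KMT2D and BRD3). With the length and GC trend removed it turned for KMT2D (-0.0057), SETD1A (-0.21), CXXC1 (-0.13), SETD7 (-0.017), SMYD3 (0.028), MED14 (0.054) and MED24 (-0.090). With limma on log2(TPM + 0.5) and log2(TPM + 0.1) it turned for KMT2A (0.0077 and 0.0081), HCFC1 (0.038 and 0.038), KDM5A (-0.13 and -0.13), BRD3 (0.13 and 0.14) and MED14 (0.20 and 0.20). With no scaling factors it turned for SMYD3 (0.0100), MED14 (0.042), MED26 (0.00056) and MED13 (0.030), and with no filter on low counts and with DESeq2 for SETD1A (-0.0029 and -0.0040) and SETD7 (-0.0054 and -0.0068). With 1 library left out the values spanned 0 for KMT2A (-0.26 to 0.045), SETD1A (-0.044 to 0.060), CXXC1 (-0.022 to 0.12), KDM5A (-0.086 to 0.27), SETD7 (-0.059 to 0.069), MED14 (-0.083 to 0.024), MED24 (-0.036 to 0.10), MED13 (-0.100 to 0.019) and CDK19 (-0.089 to 0.14). Of the turned values, that of SETD1A with the trend removed passed and the others did not. The cause was not tested. FOXD2 rose by 6.97 to 7.49 in all of these. Replicate numbers are shared between groups, but nothing says that they pair libraries, and the correlation of replicate differences between groups was -0.0989 across genes; with the replicate block 11 of the 43 were higher and 12 lower.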
